A study of Mus musculus with 4 samples.

Results

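The unfolded protein response is the programme by which a cell adjusts the folding capacity of its endoplasmic reticulum (ER). It was followed here through 33 genes for ER chaperones, disulfide isomerases, stress sensors, degradation factors and stress targets, in RNA-seq of sorted mouse alveolar type 1 (AT1) cells. AT1 cells are the thin epithelial cells through which the lung exchanges gas. The genes were found by their symbol in the deposited table of each library, and all 33 of the 33 symbols were present among 23990 genes, each at 1 position. A mean of at least 1 FPKM (fragments per kilobase of transcript, scaled to the size of the library) over the 4 libraries was needed for testing, and 31 of the 33 reached it. Derl3 and Chac1 did not.

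The libraries labelled Sox2 (n = 2) came, per the labels, from mice with the alleles Scnn1a-Cre; Rosa[Sox2/+], and the libraries labelled WT (n = 2) from mice with Scnn1a-Cre; Rosa[mTmG/+]. All mice were littermates of a mixed B6 and 129 background at postnatal day 3 or 4, and all carried the Cre recombinase driven by Scnn1a, a sodium channel gene of the lung epithelium. Cre switches on a Sox2 transgene in the first genotype and a membrane reporter in the other, each at the Rosa locus. The study asked how the airway transcription factor Sox2 affects AT1 cells. Whether the libraries of one label are from different animals is not stated, and a p-value here covers only the library-to-library spread, which may be technical.

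Sox2 itself ran against the labels. It stood at 1.41 and 1.99 FPKM in the libraries labelled Sox2, against 302 and 478 FPKM in the libraries labelled WT (limma adjusted p = 2.39e-06). Directions below are those of the labels, opposite to what the level of Sox2 would give. Whether labels or files were exchanged was not tested. If they were, every direction and ratio between the labels below is inverted, and each ratio within a label belongs to the other label. The AT1 markers went the other way: over 10 genes their FPKM added up to 6525 and 7508 FPKM in the libraries labelled Sox2, against 1179 and 639 FPKM in those labelled WT. Ager, a receptor on the AT1 membrane, ranged from 157 to 3737 FPKM over the 4 libraries. For 10 markers of the surfactant-making alveolar type 2 (AT2) cells the sum came to 26467 and 18369 FPKM in the libraries labelled Sox2, against 6401 and 1117 FPKM in those labelled WT. For 9 basal and squamous markers it came to 2.64 and 2.10 FPKM in the libraries labelled Sox2, against 66.0 and 322 FPKM in those labelled WT. The defining basal keratins Krt5 and Krt14 were at most 0.101 FPKM in the libraries labelled Sox2 and at most 0.686 FPKM in those labelled WT. For 9 genes of cell division it came to 164 and 73.3 FPKM in the libraries labelled Sox2, against 566 and 336 FPKM in those labelled WT. For markers of other cells, the sum came to 108 and 48.9 FPKM over 7 endothelial genes in the libraries labelled Sox2, against 33.5 and 12.0 FPKM in those labelled WT, and to 308 and 109 FPKM over 8 mesenchymal genes in the libraries labelled Sox2, against 133 and 32.97 FPKM in those labelled WT. Over 8 leukocyte genes it came to 62.7 and 40.7 FPKM in the libraries labelled Sox2, against 27.2 and 10.8 FPKM in those labelled WT. Of these, Cdh5 and Cldn5 (endothelial) and Csf1r (macrophage) were called higher. Over 8 club and ciliated genes the sum was 3855 and 6349 FPKM under the label Sox2, against 2074 and 2223 FPKM under WT. In the same order, over 6 mucous and secretory genes it was 0.717 and 1.35 FPKM, against 5.95 and 19.25 FPKM. For 5 red blood cell genes it was 202 and 927 FPKM, against 56.2 and 256 FPKM. For 6 plasma and B cell genes it was 5.64 and 5.73 FPKM, against 2.99 and 1.05 FPKM. Scgb3a2, Tppp3 and Hba-a2 among them were called higher, and Muc5ac and Agr2 lower. Whether any of these differences has a part in the results below was not tested. In bulk libraries, fewer cells of a type and less RNA per cell cannot be told apart.

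Secreted and membrane proteins fold in the ER, with the help of chaperones that bind exposed chains and isomerases that form disulfide bonds. When unfolded chains build up, 3 sensors in the ER membrane respond. IRE1 (gene Ern1) splices the messenger of the transcription factor XBP1, ATF6 is cut to release a transcription factor, and PERK (gene Eif2ak3) slows translation while the messenger of ATF4 is translated more. XBP1 and ATF6 raise chaperones and the genes of ER-associated degradation, and ATF4 raises genes of amino acid supply and, through Ddit3, of cell death. In the lung this machinery is best known from AT2 cells, which secrete surfactant proteins. FPKM report total messenger, so the splicing of Xbp1, the cutting of ATF6 and the translation of ATF4 are not measured by these values.

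The module was led by the folding machinery. By the mean over the 4 libraries, Hspa5 ranked 1, Calr 2, P4hb 3 and Hsp90b1 4. Hspa5, which encodes the master chaperone BiP, stood at 348 and 245 FPKM in the libraries labelled Sox2, against 396 and 148 FPKM in those labelled WT. The ranges of these leading genes overlapped across libraries, so their order is not resolved. At the low end were Ern1, Trib3, Chac1 and Derl3, with ranks 30, 31, 32 and 33. Derl3, a degradation factor, stood at 0.492 and 0.338 FPKM in the libraries labelled Sox2, against 0.315 and 0.182 FPKM in those labelled WT. The deposited bounds of its values reached 45.9% to 100.0% of the value on either side, against 3.45% to 4.12% for Hspa5, and the bounds overlapped between all 4 libraries.

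**Figure D1:**
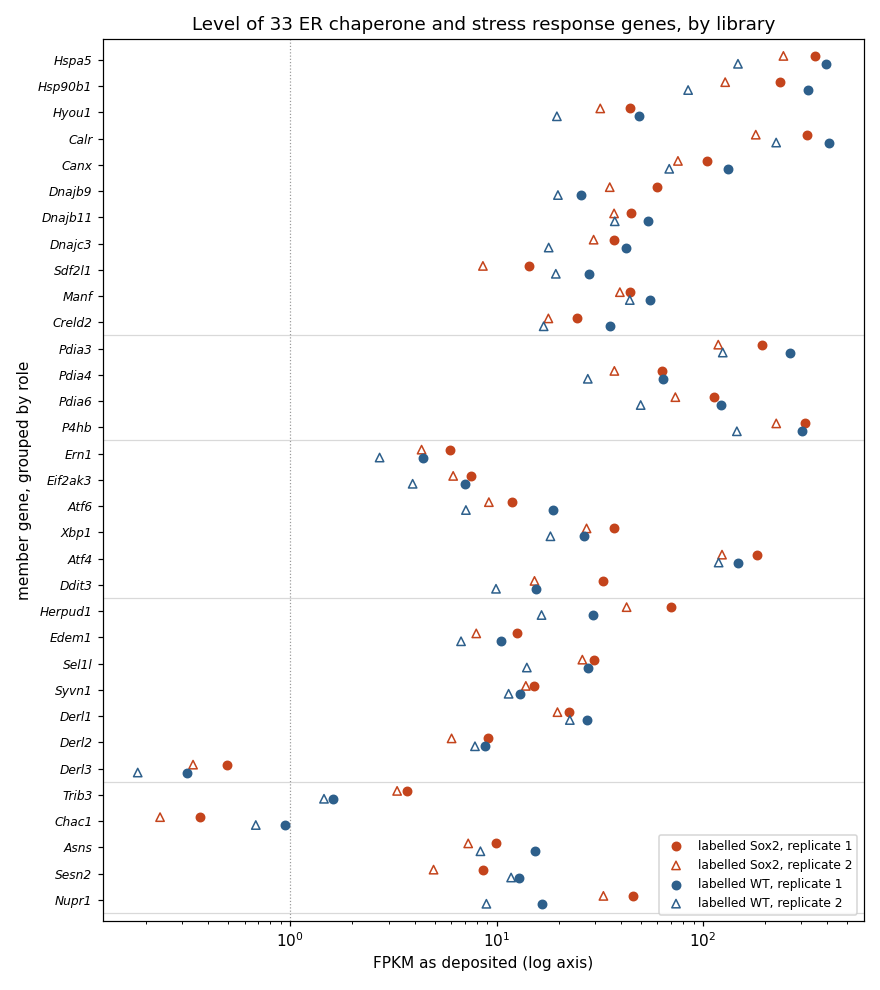
FPKM as deposited (log axis) of the 33 genes, grouped by role, in the 2 libraries labelled Sox2 (orange, upper points of each row) and the 2 labelled WT (blue, lower points); circles are replicate 1 and triangles replicate 2, and the dotted line marks 1 FPKM. Every circle lies to the right of the triangle of its colour, and Herpud1, Dnajb9, Trib3 and Nupr1 have both orange points to the right of both blue ones.

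Of the 31 tested genes, limma called 1 higher in the libraries labelled Sox2 and 0 lower, and 30 were not called. Among all tested genes 12.3% were called, 4.20% higher and 8.11% lower. With unadjusted p-values, 3 were higher and 1 lower at 0.05, where 8.47% and 21.1% of all tested genes were. The gene that passed was Nupr1. The median log2 difference of the module (labelled Sox2 minus labelled WT, on the log2(FPKM + 1) scale) was 0.22, beside -0.29 over all 12040 tested genes. In 6 of the tested genes both libraries labelled Sox2 lay above both labelled WT, and in 3 they lay below, where 15.7% and 42.5% of all tested genes did so (58.1% together).

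FPKM set the libraries on different overall levels. The median-of-ratios factors, which centre most genes on a common level, were 1.06 and 0.775 for the libraries labelled Sox2 and 1.25 and 0.974 for those labelled WT, and dividing by them moved the median difference of all genes by 0.24, to -0.06. After this rescaling 4 of the 31 genes were higher (Herpud1, Dnajb9, Trib3 and Nupr1) and none lower, where 13.7% of all tested genes were called, 7.33% higher and 6.37% lower. The module's median was then 0.49. The groups stood apart with labelled Sox2 above in 16 tested genes and below in 2, beside 28.2% and 34.5% of all genes (62.7% together). With labelled WT replicate 1 left out of the deposited values, 3 were higher (Dnajb9, Herpud1 and Nupr1) and none lower, where 14.3% of all genes were called, 6.95% higher and 7.37% lower. None was called without labelled Sox2 replicate 1, labelled Sox2 replicate 2 or labelled WT replicate 2, where 4.94%, 1.94% and 14.2% of all genes were called. Calls of the members are given on both scales, and calls in the wider lists as deposited unless said otherwise. Per-library values are as deposited unless they are said to be rescaled.

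**Figure D2:**
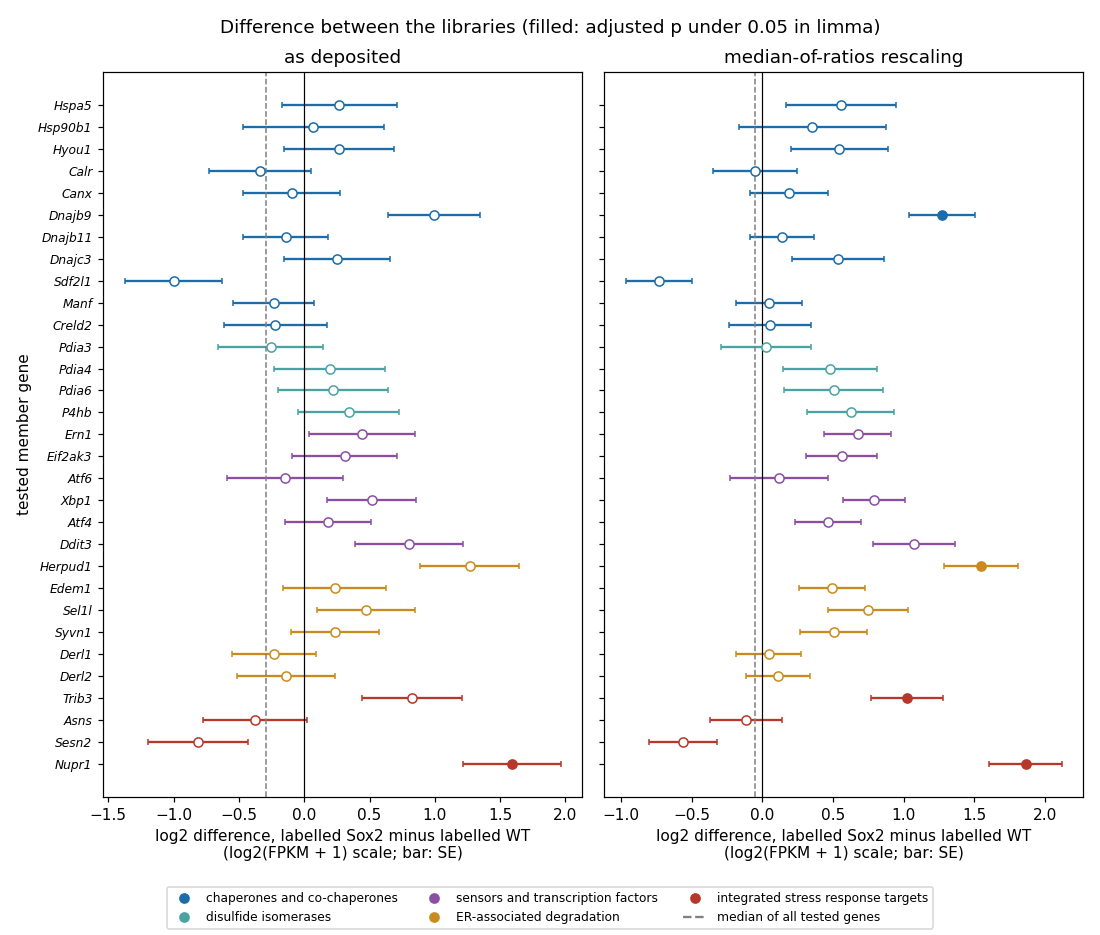
Log2 difference (labelled Sox2 minus labelled WT, log2(FPKM + 1) scale) with its SE for the 31 tested genes, as deposited on the left and after median-of-ratios rescaling on the right, coloured by role; filled points have an adjusted p under 0.05 in limma and the dashed line is the median of all tested genes (-0.29 and -0.06). Nupr1 is the 1 filled point on the left, and 4 points are filled on the right.

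Of 11 chaperones and partners tested, none passed as deposited, and Dnajb9 did after rescaling. Of all tested genes, 12.3% and 13.7% were called. The median log2 difference of the 11 was -0.10 as deposited and 0.19 after rescaling, beside -0.29 and -0.06 over all tested genes. For Hspa5 the log2 difference was 0.27 (SE 0.44, limma adjusted p = 0.733), and 0.56 after rescaling (adjusted p = 0.372). Hsp90b1, the HSP90 of the ER, stood at 235 and 128 FPKM in the libraries labelled Sox2, against 322 and 84.7 FPKM in those labelled WT. The libraries labelled WT spanned both libraries labelled Sox2 for these genes. The same held for Hyou1, a nucleotide exchange factor of BiP, and for Dnajc3, a BiP co-chaperone that also inhibits PERK, whose values stood between 31.8 and 44.2 FPKM and between 29.5 and 37.1 FPKM in the libraries labelled Sox2, inside the values of the libraries labelled WT. After rescaling Hspa5, Hyou1 and Dnajc3 had both libraries labelled Sox2 above both labelled WT, and Hsp90b1 still overlapped. Calr and Canx, the lectin chaperones that hold glycoproteins, had means of 250 ± 98.3 FPKM and 90.1 ± 20.6 FPKM in the libraries labelled Sox2, against 317 ± 128 FPKM and 100.3 ± 44.8 FPKM in those labelled WT (SD, n = 2 each). Dnajb11, a BiP co-chaperone, and the secreted stress proteins Manf and Creld2 had log2 differences of -0.14, -0.23 and -0.22, which became 0.14, 0.05 and 0.05 after rescaling. None of these passed on either scale. With rescaling and labelled WT replicate 1 left out, which leaves 1 library of that label, Hspa5 was called higher. It was called in no other setting. As deposited and without labelled WT replicate 2, its log2 difference was -0.44.

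Dnajb9 and Sdf2l1, both partners of BiP, lay on opposite sides. Dnajb9 encodes ERdj4, a co-chaperone that helps BiP hold IRE1 inactive. It stood at 59.9 and 35.3 FPKM in the libraries labelled Sox2, against 25.7 and 19.8 FPKM in those labelled WT. Both libraries labelled Sox2 were above both labelled WT. The ratio of means was 2.09, and the log2 difference of 1.00 (SE 0.35) did not pass as deposited (limma adjusted p = 0.0883) but did after rescaling, at 1.27 (SE 0.23, limma adjusted p = 0.0240). The rescaled call was lost without labelled Sox2 replicate 1 (adjusted p = 0.171), labelled Sox2 replicate 2 (0.133) or labelled WT replicate 2 (0.0603). Sdf2l1, which keeps BiP clients soluble, stood at 14.3 and 8.58 FPKM in the libraries labelled Sox2, against 27.9 and 19.4 FPKM in those labelled WT. Here both libraries labelled Sox2 were below both labelled WT, and the log2 difference was -1.00 (SE 0.37, limma adjusted p = 0.102), or -0.73 after rescaling (adjusted p = 0.0882).

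As deposited the disulfide isomerases overlapped between the labels in 4 of 4 cases, where 58.1% of all tested genes did not overlap. After rescaling 3 overlapped, and P4hb stood apart, where 62.7% of all genes did. P4hb, the classical isomerase and a subunit of collagen prolyl hydroxylase, stood at 312 and 226 FPKM in the libraries labelled Sox2, against 302 and 146 FPKM in those labelled WT. Its log2 difference was 0.34 (SE 0.39, limma adjusted p = 0.609), or 0.62 after rescaling (adjusted p = 0.226). Pdia3, the isomerase that works with calreticulin and calnexin, had a mean of 156 ± 53.2 FPKM in the libraries labelled Sox2, against 194 ± 98.5 FPKM in those labelled WT (SD, n = 2 each). The spread within the label WT exceeded the difference between the labels in both genes. Pdia4 and Pdia6 had log2 differences of 0.20 and 0.22 as deposited and 0.48 and 0.50 after rescaling, none of them past the threshold.

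Some promoters of the module hold matches to known stress elements, which are shown because different transcription factors can read them. The matches do not divide the genes cleanly, as some genes have none and Herpud1 has matches to different elements. RefSeq windows of 300 bases (250 before the annotated start and 50 after it, build GRCm38.p6) were found for 29 of the 33 genes. The ER stress element (ERSE), read by ATF6 and XBP1 with the CCAAT factor NF-Y, was searched on both strands as CCAAT, 9 bases of any kind and CCACG. It occurred in 9 of the 29 genes, and in 37 of all 27025 genes with a window, or 0.137%. The matches before the start are given on the strand of the gene, with the element in capitals and 10 bases on either side; those of Calr, Derl3, Creld2 and the nearer one of Hsp90b1 read as the reverse complement.
Hspa5, chr2:34772015-34772053, plus strand: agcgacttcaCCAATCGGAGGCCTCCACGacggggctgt
Hsp90b1, farther, chr10:86705628-86705666, minus strand: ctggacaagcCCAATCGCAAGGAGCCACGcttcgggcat
Hsp90b1, nearer, chr10:86705523-86705561, minus strand: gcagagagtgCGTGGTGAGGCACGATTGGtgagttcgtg
Calr, chr8:84847065-84847103, minus strand: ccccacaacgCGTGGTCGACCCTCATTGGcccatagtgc
Canx, chr11:50325790-50325828, minus strand: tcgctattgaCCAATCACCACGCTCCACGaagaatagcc
Dnajc3, chr14:118937817-118937855, plus strand: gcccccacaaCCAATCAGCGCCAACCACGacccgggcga
Creld2, chr15:88819510-88819548, plus strand: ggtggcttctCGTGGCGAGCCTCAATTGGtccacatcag
Pdia6, chr12:17266481-17266519, plus strand: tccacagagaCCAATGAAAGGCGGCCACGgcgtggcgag
Syvn1, chr19:6046522-6046560, plus strand: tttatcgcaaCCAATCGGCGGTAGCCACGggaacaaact
Derl3, chr10:75893232-75893270, plus strand: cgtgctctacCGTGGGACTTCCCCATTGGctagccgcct

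Of the 9 genes with an ERSE match, 8 were tested, and none passed as deposited or after rescaling. Over all tested genes the shares called were 12.3% and 13.7%. The log2 differences of the 8 after rescaling ran from -0.05 to 0.56, with a median of 0.43, beside 0.49 for the module and -0.06 for all genes. The related ERSE-II, searched as ATTGG, 1 base of any kind and CCACG, occurred in Dnajb11 and Herpud1, and in 0.0444% of all genes. The core of the unfolded protein response element, TGACGTGG, was in none of the 29 windows and in 0.714% of all genes. The C/EBP-ATF response element, through which ATF4 acts, was searched by its core TGATGNAA and occurred in 5 of the 29 genes (Herpud1, Trib3, Chac1, Asns and Nupr1) and in 4.51% of all genes. No match of one element overlapped a match of another. The genes were chosen as stress response genes, so these shares describe the windows, and a match is not a shown binding site.

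**Figure D3:**
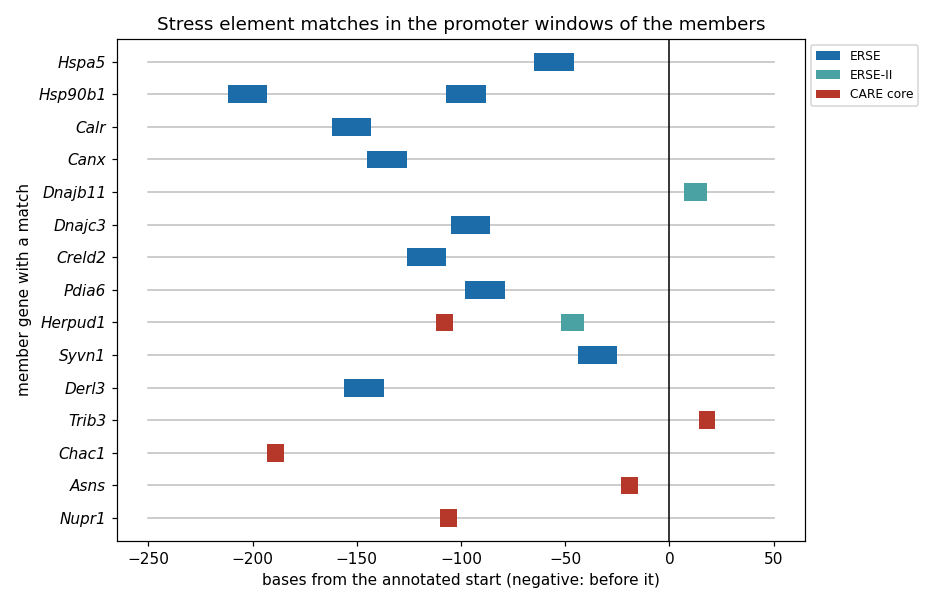
Position of each match in the promoter windows of the 15 genes that had one, in bases from the annotated start (negative values lie before it), with ERSE in blue, ERSE-II in green and the core of the C/EBP-ATF response element in red. Blue matches sit in the rows of chaperones and of Pdia6, Syvn1 and Derl3, red ones in the rows of Herpud1, Trib3, Chac1, Asns and Nupr1.

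Of the 3 sensors and their transcription factors, 6 genes in all, none passed on either scale. Of all tested genes, 12.3% were called as deposited and 13.7% after rescaling. Ern1 stood at 5.93 and 4.33 FPKM in the libraries labelled Sox2, against 4.41 and 2.71 FPKM in those labelled WT. Eif2ak3 stood at 7.50 and 6.15 FPKM in the libraries labelled Sox2, against 7.04 and 3.92 FPKM in those labelled WT. Atf6 had a mean of 10.5 ± 1.88 FPKM in the libraries labelled Sox2, against 13.0 ± 8.29 FPKM in those labelled WT (SD, n = 2 each). As deposited the groups overlapped in all 3 sensors. After rescaling the libraries labelled Sox2 lay above those labelled WT for Ern1 (log2 difference 0.67) and Eif2ak3 (0.56), and the groups still overlapped for Atf6. Xbp1 stood at 37.2 and 27.3 FPKM in the libraries labelled Sox2, against 26.5 and 18.2 FPKM in those labelled WT, so the groups stood apart by a narrow margin. Its log2 difference was 0.52 (SE 0.34, limma adjusted p = 0.348), and 0.79 after rescaling (SE 0.22, adjusted p = 0.0647). Rescaled, the Xbp1 values were 35.2 and 35.2 FPKM in the libraries labelled Sox2, against 21.2 and 18.7 FPKM in those labelled WT.

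Atf4 and its partner Ddit3 differed from each other in level and in spread. Atf4 stood at 183 and 124 FPKM in the libraries labelled Sox2, against 147 and 119 FPKM in those labelled WT, and its log2 difference was 0.18 (SE 0.33, limma adjusted p = 0.759), or 0.47 after rescaling, where the groups no longer overlapped. Ddit3, which encodes the pro-death factor CHOP, stood at 32.8 and 15.3 FPKM in the libraries labelled Sox2, against 15.6 and 9.93 FPKM in those labelled WT. Labelled Sox2 replicate 1 was the high library, and labelled Sox2 replicate 2 lay within the range of those labelled WT. The log2 difference of Ddit3 was 0.80 (SE 0.42, limma adjusted p = 0.226) as deposited and 1.07 (SE 0.29, adjusted p = 0.0616) after rescaling, where the groups no longer overlapped.

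ER-associated degradation moves misfolded proteins back to the cytosol for the proteasome, and among its genes Herpud1 stood apart. Herpud1 encodes a membrane protein that assembles the degradation complex around the ligase HRD1. It stood at 69.6 and 42.6 FPKM in the libraries labelled Sox2, against 29.4 and 16.5 FPKM in those labelled WT. Both libraries labelled Sox2 were above both labelled WT, and the ratio of means was 2.44. The log2 difference was 1.27 (SE 0.38) with an adjusted p in limma of 0.0521 as deposited, and 1.55 after rescaling (SE 0.26, adjusted p = 0.0203). The rescaled call was lost without labelled Sox2 replicate 1 (adjusted p = 0.123), labelled Sox2 replicate 2 (0.113) or labelled WT replicate 2 (0.0529). Among the members, the promoter of Herpud1 was the 1 window with both an ERSE-II and a C/EBP-ATF match, shown here in the 150 bases before the start at chr8:94386279-94386428 on the plus strand, with the C/EBP-ATF match first and the ERSE-II after it, both in capitals.
Herpud1: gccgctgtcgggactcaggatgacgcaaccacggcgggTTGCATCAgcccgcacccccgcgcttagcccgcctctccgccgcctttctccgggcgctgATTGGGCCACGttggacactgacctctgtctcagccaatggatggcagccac

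The other degradation genes did not pass on either scale. Syvn1, the gene of the ligase HRD1, stood at 15.2 and 13.8 FPKM in the libraries labelled Sox2, against 12.9 and 11.4 FPKM in those labelled WT, with a log2 difference of 0.24 (SE 0.34). Its partner Sel1l had a mean of 27.8 ± 2.57 FPKM in the libraries labelled Sox2, against 20.9 ± 9.69 FPKM in those labelled WT (SD, n = 2 each). As deposited the groups stood apart for Syvn1 and overlapped for Sel1l, whose log2 difference was 0.47, or 0.75 after rescaling, where they stood apart. Edem1, which hands trimmed glycoproteins to degradation, had a mean of 10.3 ± 3.29 FPKM in the libraries labelled Sox2, against 8.59 ± 2.65 FPKM in those labelled WT (SD, n = 2 each), and its groups overlapped as deposited and stood apart after rescaling. The channel-like derlins Derl1 and Derl2 had log2 differences of -0.23 and -0.14, or 0.04 and 0.11 after rescaling.

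The targets of the integrated stress response, the arm that runs through ATF4, differed in sign, and 1 of them, Nupr1, passed. Nupr1, a small stress-induced chromatin protein, stood at 45.6 and 32.9 FPKM in the libraries labelled Sox2, against 16.6 and 8.92 FPKM in those labelled WT. The lowest library labelled Sox2 was above the highest labelled WT, and the ratio of means was 3.07. Its log2 difference was 1.59 (SE 0.38, limma adjusted p = 0.0215), and 1.86 after rescaling (SE 0.26, adjusted p = 0.0134). The call as deposited was lost without labelled Sox2 replicate 1 (adjusted p = 0.144), labelled Sox2 replicate 2 (0.110) or labelled WT replicate 2 (0.05002), and with no filter on low values (0.119). After rescaling it was lost without either library labelled Sox2 (0.06605 and 0.0918) and held without either labelled WT (0.0141 and 0.0373).

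Trib3, a pseudokinase that ATF4 and CHOP induce, was low, with close values within each label as deposited. It stood at 3.70 and 3.29 FPKM in the libraries labelled Sox2, against 1.61 and 1.46 FPKM in those labelled WT. The deposited bounds ran down to 2.62 FPKM in the libraries labelled Sox2 and up to 1.97 FPKM in those labelled WT, so they did not meet. The log2 difference was 0.83 (SE 0.38, limma adjusted p = 0.178) as deposited and 1.02 (SE 0.25, adjusted p = 0.0488) after rescaling, and the rescaled call was lost without any 1 of the 4 libraries (adjusted p between 0.0833 and 0.292).

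Sesn2, Chac1 and Asns, also ATF4 targets, did not share this direction. Sesn2, a stress-induced brake on growth signalling, stood at 8.56 and 4.95 FPKM in the libraries labelled Sox2, against 12.8 and 11.7 FPKM in those labelled WT. Chac1, which degrades glutathione, stood at 0.366 and 0.234 FPKM in the libraries labelled Sox2, against 0.942 and 0.680 FPKM in those labelled WT, too low to be tested. In both genes the libraries labelled Sox2 lay below those labelled WT. The log2 difference of Sesn2 was -0.81 (SE 0.38, limma adjusted p = 0.182), or -0.56 after rescaling. Asns, the asparagine synthetase, had a mean of 8.62 ± 1.89 FPKM in the libraries labelled Sox2, against 11.9 ± 4.98 FPKM in those labelled WT (SD, n = 2 each), and the groups overlapped.

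The C/EBP-ATF matches are shown because Nupr1, the gene called as deposited, carries one. With 10 bases on either side and the core in capitals, on the strand of the gene, the matches before the start are these, of which the one in Asns reads forward and the others as the reverse complement.
Nupr1, chr7:126625563-126625590, minus strand: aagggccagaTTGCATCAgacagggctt
Herpud1, chr8:94386307-94386334, plus strand: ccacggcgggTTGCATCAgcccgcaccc
Chac1, chr2:119351039-119351066, plus strand: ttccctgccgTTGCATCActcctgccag
Asns, chr6:7693215-7693242, minus strand: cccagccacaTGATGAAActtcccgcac
In the 5 carriers, the groups stood apart with labelled Sox2 above in 3 (Nupr1, Herpud1 and Trib3) and below in 1 (Chac1), and overlapped in 1 (Asns), where 15.7% of all tested genes stood above and 42.5% below. Chac1 itself was too low to be tested. Its deposited bounds reached up to 0.543 FPKM under the label Sox2. That is past the lower bound of 0.359 FPKM in labelled WT replicate 2, but not that of 0.622 FPKM in labelled WT replicate 1. Nupr1, Herpud1 and Chac1 hold the same 8 letters, with Chac1 below and the other genes above in the libraries labelled Sox2. The 150 bases before the start of Nupr1, chr7:126625471-126625620 on the minus strand, hold this match and none of the ER stress elements searched.
Nupr1: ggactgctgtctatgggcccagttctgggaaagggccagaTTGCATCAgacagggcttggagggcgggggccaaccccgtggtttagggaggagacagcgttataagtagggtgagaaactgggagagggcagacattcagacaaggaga

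As deposited, the libraries within each label differed in 1 direction for the whole module. After rescaling this did not hold for every gene. Manf was then lower in replicate 1 under both labels (42.0 and 51.0 FPKM under Sox2, 44.2 and 45.4 FPKM under WT), while Hspa5 kept the direction. The values that follow are as deposited. Replicate 1 of the label WT was above replicate 2 in 33 of 33 genes, by a ratio of 1.09 to 3.81 with a median of 1.78, where the median ratio over all tested genes was 1.30 and 72.6% of them were higher in replicate 1. Replicate 1 of the label Sox2 was above replicate 2 in 33 of 33 as well, by 1.10 to 2.15 with a median of 1.39, beside 1.36 over all tested genes, of which 85.9% were higher in replicate 1. In the label WT the ratio was 3.81 for Hsp90b1, 2.68 for Hspa5, 2.65 for Atf6 and 2.49 for Hyou1. The summed level of the 4 disulfide isomerases came to 682 and 456 FPKM in the libraries labelled Sox2, against 752 and 348 FPKM in those labelled WT. Of the marker sums given above, most were also higher in replicate 1 of the label WT. These were the sums for AT1, AT2, endothelial, mesenchymal, leukocyte, plasma and B cell, and cell division genes. The basal and squamous, club and ciliated, mucous and secretory, and red blood cell sums were lower there. Their part in this spread was not tested. Without labelled WT replicate 1 the module's median difference was 0.67, and without labelled WT replicate 2 it was -0.36.

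**Figure D4:**
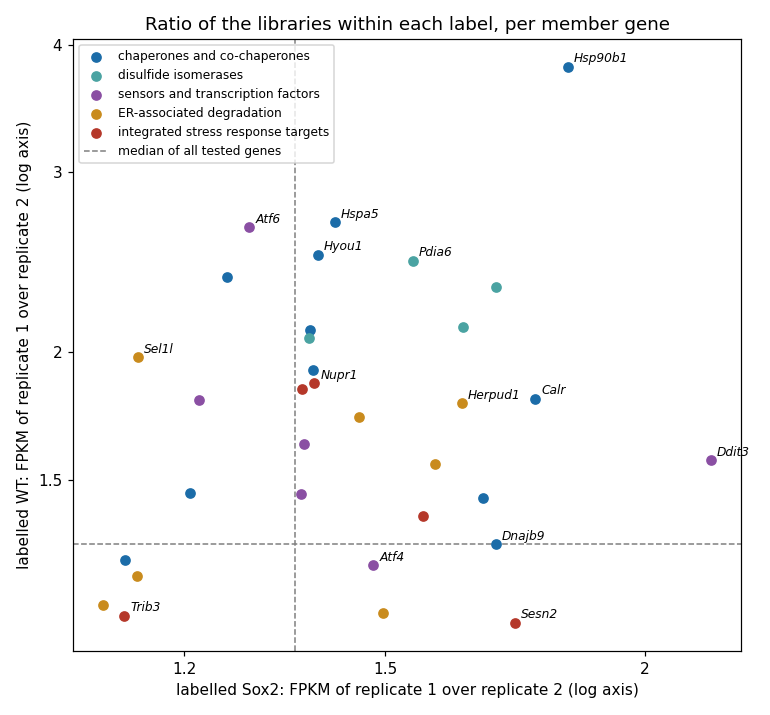
Ratio of replicate 1 to replicate 2 in FPKM as deposited (log axes) for each of the 33 genes, for the libraries labelled Sox2 on the horizontal axis and those labelled WT on the vertical axis, coloured by role; dashed lines are the medians over all tested genes (1.36 and 1.30). All points lie above 1 on both axes, and Hsp90b1, at 3.81, is the highest on the vertical axis.

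The wider machinery around the module was followed in 7 lists of other genes of the secretory and stress pathways. Of 138 tested genes 5 were higher, 9 lower and 124 did not pass in limma, 10.1% in all, close to the 12.3% of all tested genes. After rescaling 8 were higher and 7 lower, where 13.7% of all genes were called. Higher only after rescaling were Edem3 of the degradation list (log2 difference 1.21, limma adjusted p = 0.0427) and Creb3l1 of the stress regulators (1.37, 0.0240). The same held for Atf3 of the ATF4 targets (1.70, 0.0474). Counts by list below are as deposited unless said otherwise. The 15 genes of the calnexin cycle and of N-glycan transfer and the 20 genes of ER-to-Golgi carriers and KDEL receptors had none past the threshold on either scale. Their most abundant genes were Dad1 and Ddost, subunits of the enzyme that transfers N-glycans, at log2 differences of -0.45 and -0.58 (-0.17 and -0.29 after rescaling), and the cargo carriers Tmed2 and Surf4, at -0.55 and -0.28. After rescaling Tmed2 was at -0.27, and Surf4 turned to 0.0047. Of 18 translocon and signal peptidase genes, 1 was lower and none was higher. That gene, Spcs3, a signal peptidase subunit, stood at 11.9 and 7.44 FPKM in the libraries labelled Sox2, against 30.4 and 25.0 FPKM in those labelled WT. Its log2 difference was -1.45 (limma adjusted p = 0.0248), and the call was lost without labelled Sox2 replicate 1 (0.0556) or 2 (0.267).

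The other calls in the wider lists fell in the lists of isomerases, degradation genes, stress regulators and ATF4 targets. Of 17 other isomerase and ER oxidation genes, 1 was higher and 2 were lower. Qsox1, a secreted sulfhydryl oxidase, stood at 15.8 and 16.1 FPKM in the libraries labelled Sox2, against 94.0 and 174 FPKM in those labelled WT (log2 difference -2.93, limma adjusted p = 8.74e-04). As deposited it kept its call without any 1 library, and after rescaling it lost it without labelled Sox2 replicate 1 (0.0785) or 2 (0.0773). P4ha1, the catalytic partner of P4hb in collagen prolyl hydroxylase, stood at 23.4 and 16.2 FPKM in the libraries labelled Sox2, against 6.54 and 1.68 FPKM in those labelled WT (2.19, adjusted p = 0.0168), while P4hb itself did not pass. The call of P4ha1 was lost without labelled Sox2 replicate 1 (adjusted p = 0.126) or 2 (0.110). Txndc12, a thioredoxin-like ER protein, was lower at -1.26 (adjusted p = 0.0259), and lost its call without labelled Sox2 replicate 1 (0.0768) or 2 (0.230). Of 21 other degradation genes 2 were lower, Rnf5 and Ube2g2, a ubiquitin ligase and a conjugating enzyme, at log2 differences of -1.32 and -1.17 (limma adjusted p = 0.0278 and 0.0364). Rnf5 kept its call without labelled WT replicate 2 and lost it without any 1 of the other libraries (0.0523 to 0.262). Ube2g2 kept its call without labelled WT replicate 1, lost it without any 1 of the other libraries (0.0998 to 0.262), and lost it after rescaling (0.0869).

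Among 19 other stress sensors, transducers and regulators, 2 were higher and 1 lower. Creb3l2, an ER-bound relative of ATF6, stood at 65.4 and 87.7 FPKM in the libraries labelled Sox2, against 21.1 and 16.2 FPKM in those labelled WT (log2 difference 1.97, limma adjusted p = 0.00409). Ppp1r15a encodes GADD34, which reverses the translation block set by PERK, and stood at 84.6 and 72.6 FPKM in the libraries labelled Sox2, against 31.0 and 25.1 FPKM in those labelled WT (1.46, adjusted p = 0.0134). Both genes had groups that stood clearly apart. Creb3l2 missed the threshold without labelled Sox2 replicate 2 (adjusted p = 0.0801), and Ppp1r15a without labelled Sox2 replicate 1 (0.0904) or 2 (0.0951). Bax, a mediator of cell death at the mitochondrion, was lower, at 35.6 and 27.8 FPKM in the libraries labelled Sox2, against 101 and 108 FPKM in those labelled WT, and missed the threshold without labelled Sox2 replicate 2. After rescaling Bax missed it without labelled Sox2 replicate 1, labelled Sox2 replicate 2 or labelled WT replicate 2. Creb3l2 then missed it without labelled Sox2 replicate 2 or labelled WT replicate 2.

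Among 28 other ATF4 targets 2 were higher and 3 (Phgdh, Psat1 and Shmt2) lower. Phgdh, the entry enzyme of serine synthesis, stood at 12.3 and 8.63 FPKM in the libraries labelled Sox2, against 85.8 and 49.1 FPKM in those labelled WT (log2 difference -2.54, limma adjusted p = 0.00218). As deposited it kept its call without any 1 library, and after rescaling it lost it without labelled Sox2 replicate 2 (0.0680). Psat1, the next enzyme, stood at 55.2 and 45.7 FPKM in the libraries labelled Sox2, against 213 and 94.2 FPKM in those labelled WT (-1.48, adjusted p = 0.0332), and missed the threshold after rescaling (0.0617) and without labelled Sox2 replicate 1 (0.0880), labelled Sox2 replicate 2 (0.226) or labelled WT replicate 1 (0.137). Psph, the last enzyme of serine synthesis, did not pass (-0.36, adjusted p = 0.642) and its groups overlapped. Shmt2, which makes glycine from serine in mitochondria, was at -1.55 (limma adjusted p = 0.0206), and missed the threshold without labelled Sox2 replicate 2. After rescaling Shmt2 missed it without labelled Sox2 replicate 1, labelled Sox2 replicate 2 or labelled WT replicate 2. The higher genes were the lipoprotein receptor Vldlr, at 6.51 and 5.06 FPKM in the libraries labelled Sox2, against 1.48 and 0.246 FPKM in those labelled WT (1.94, adjusted p = 0.0182), and the glutamine carrier Slc1a5, at 113 and 99.3 FPKM in the libraries labelled Sox2, against 37.3 and 39.0 FPKM in those labelled WT, which was outside the naming rule and is named because it completes the count. Vldlr kept its call without labelled WT replicate 1 and lost it without any 1 of the other libraries (0.0770 to 0.118). The median of this list was -0.56, or -0.31 after rescaling.

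**Figure D5:**
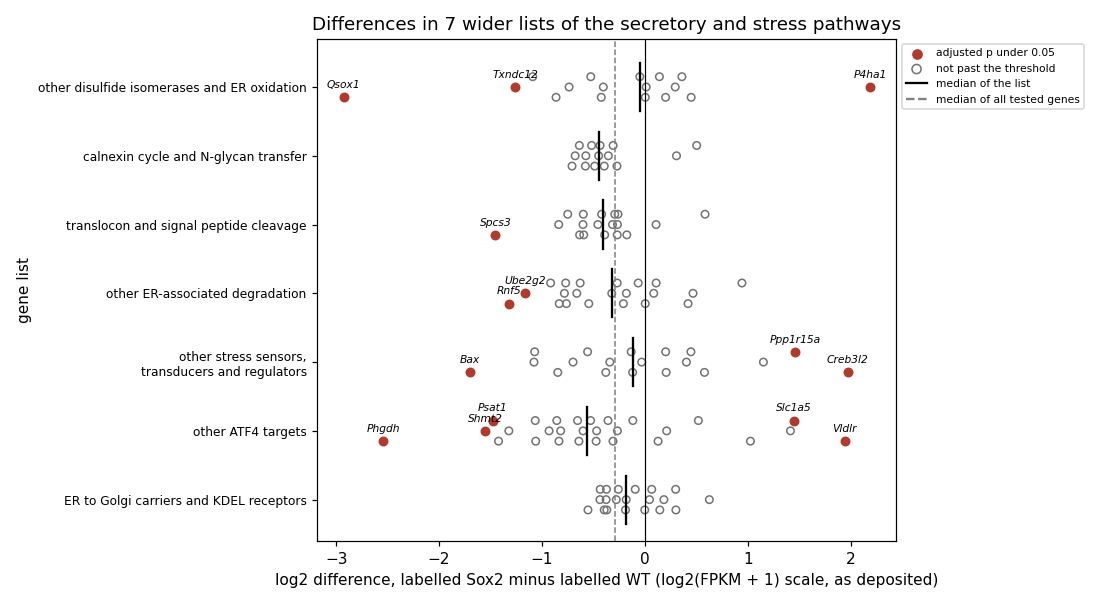
Log2 difference as deposited (labelled Sox2 minus labelled WT, log2(FPKM + 1) scale) of the 138 tested genes in 7 wider lists, with genes past the adjusted p of 0.05 filled and named, the median of each list as a black bar and the median of all tested genes (-0.29) dashed. The named points are 5 on the right and 9 on the left, and the rows of the calnexin cycle and of ER-to-Golgi carriers hold none.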

How the data were processed

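Per the submitters' processing notes, the tools were TopHat2, Bowtie2, Cufflinks and Cuffdiff and the genome build was mm10; versions, gene annotation and strandedness of counting: not given in the sources used here. The values the authors deposited are FPKM per gene and library, each with its lower and upper limit, per the file headers. FPKM are scaled by library, so a few abundant genes can shift all others. Genes of small RNAs (symbols of microRNAs and small nucleolar RNAs) held 14.0% and 5.75% of the summed FPKM in the libraries labelled Sox2, against 19.3% and 50.9% in those labelled WT. Because FPKM divide by transcript length, these are not shares of reads. Whether they have a part in the median-of-ratios factors was not tested. No read count was analysed here, so depth is unknown; among genes at 1 FPKM or more, these limits lay a median of 7.94% and 12.4% from the value in the libraries labelled Sox2, against 7.81% and 9.90% in those labelled WT. A further table of group values was not used, because no label ties its columns to a group.

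Entries of 1 symbol were added (267 genes), and 1 gene with a failed status was left out. Genes whose mean reached 1 FPKM were tested on log2(FPKM + 1) in limma 3.58.1 (R 4.3.3; lmFit, eBayes with trend), two-sided, with Benjamini-Hochberg adjustment over 12040 genes and a threshold of 0.05. This scale understates the change of low genes. The fit was also run on simulated data with known changes. Those data held no library-wide offsets and no correlation between same-numbered libraries, so the run does not show the error rate here. With 2 against 2 libraries an exact permutation test cannot pass the threshold and was not run. The genes named are all 33 members, Sox2, and from each wider list up to 4 genes past the threshold by size of difference, or, in a list without any, its 2 most abundant genes. Named outside this rule are the marker genes, Slc1a5, Psph, and Edem3, Creb3l1 and Atf3, which were called only after rescaling. The members and lists were chosen with earlier results of these data known, and sequences to show were chosen after the values were seen. Alternatives were median-of-ratios rescaling, quantile normalization, a pseudocount of 0.1, a minimum mean of 5 FPKM or none (any gene above 0), a robust variance model, a block for the replicate number, and leaving out each library; after the data were seen, the block and each left-out library were added on the rescaled values. Promoter windows are from RefSeq tables of GRCm38.p6, the build also called mm10. Of 30 windows of the members, 26 ended in an annotated transcript of their gene as written (GENCODE M21), and none did as the reverse complement.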

Additional observations from a re-analysis of the deposited data

How the results depend on the processing

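Testing every gene above 0 (18390 genes) gave 0 calls higher and 3 lower (1251 and 2618 at an unadjusted p under 0.05), 0 members higher or lower (3 and 2 unadjusted) and 0 genes of the wider lists. Median-of-ratios rescaling gave 882 genes higher, 4 members higher and 8 wider genes higher; quantile normalization gave 980 genes (8.14%) and 3 members (Dnajb9, Herpud1 and Nupr1); the robust variance model gave 2 members (Herpud1 and Nupr1) where 5.01% of all genes were higher. The share of calls that were higher went with the scaling, 506 of 1482 as deposited and 882 of 1649 rescaled. The replicate block gave 1142 genes higher (9.49%) and 2730 lower (22.7%), 5 members higher (Dnajb9, Ddit3, Herpud1, Trib3 and Nupr1) and 2 lower (Sdf2l1 and Sesn2), and 9 and 27 wider genes. With rescaling and the replicate block together the counts were 6 members higher (the 5 of the block and Xbp1), where 1321 of all 12040 genes were higher and 1324 lower, and 10 wider genes higher and 12 lower. Deviations of the same-numbered libraries from their group means correlated across genes at 0.23, but nothing in the labels ties the numbers to a shared litter or day. With 1 library left out, where a lone library is assumed to vary like the others, counts ran from 119 to 837 genes higher, 115 to 1312 lower, 0 to 3 members higher, 0 to 8 wider genes higher and 2 to 18 lower; after rescaling these were 0 to 4 members, 0 to 8 and 0 to 8. The module median ran from -0.36 to 0.67 as deposited and from 0.09 to 0.76 rescaled. The causes were not tested.

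Of 31 tested members, 11 kept their sign in every alternative listed above on the deposited or rescaled values other than those added later (Dnajb9, Sdf2l1, Ern1, Xbp1, Ddit3, Herpud1, Sel1l, Syvn1, Trib3, Sesn2 and Nupr1), and 20, including all isomerases, did not. Trib3 and Ern1 have no value under the filter at 5 FPKM. With rescaling or quantile normalization, the sign turned for Canx (0.19 and 0.17), Dnajb11 (0.14 and 0.20), Manf (0.0468 and 0.10), Creld2 (0.0535 and 0.0858), Pdia3 (0.0267 and 0.0512), Atf6 (0.12 and 0.13), Derl1 (0.0431 and 0.0783) and Derl2 (0.11 and 0.14), for the carrier Surf4 of the wider lists (0.0047 and 0.0274), and with quantile normalization for Calr (3.97e-05). With 1 library left out, differences ran from -0.44 to 0.98 for Hspa5, -0.89 to 1.03 for Hsp90b1, -0.37 to 0.90 for Hyou1, -0.76 to 0.0842 for Calr, -0.56 to 0.37 for Canx, -0.41 to 0.12 for Dnajb11, -0.35 to 0.85 for Dnajc3, -0.74 to 0.29 for Creld2, -0.80 to 0.28 for Pdia3, -0.40 to 0.79 for Pdia4, -0.42 to 0.86 for Pdia6, -0.18 to 0.86 for P4hb, -0.0443 to 0.67 for Eif2ak3, -0.80 to 0.50 for Atf6, -0.10 to 0.46 for Atf4, -0.0696 to 0.53 for Edem1, -0.40 to 0.11 for Derl2 and -0.78 to 0.0276 for Asns. Depth is unknown, and Chac1 and Derl3 are too low for a test.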
